A study of Mus musculus with 7 samples.

Results

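Voltage-gated calcium channels, voltage-gated sodium channels, transient receptor potential (TRP) channels and the calcium release channels of the endoplasmic reticulum were examined in sorted insulin-lineage cells of early weaned and suckling mice. The genes were taken by symbol from the platform annotation (Cacna, Cacnb, Cacng, Scn, Trpa, Trpc, Trpm, Trpv, Ryr and Itpr followed by their subtype), with the brightest probe set standing for a gene. This gave 63 of 19938 genes, of which 60 encode channel subunits. The other 3, Trpc4ap, Trpc5os and Itpr3os, match by symbol only and encode an associated protein and transcripts named for the opposite strand. Some subunit genes of these families were not analysed here.

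The mice were insulin-Cre; Rosa26-LSL-YFP animals on the ICR background, in which Cre driven by an insulin promoter removes a stop cassette so that cells with insulin-promoter activity, and their descendants, carry a yellow fluorescent protein. The weaned group, 3 mice, had been separated from milk at postnatal day 18, and the suckling group, 4 mice, had not. Both carried the same alleles and were sampled at day 25, with 2000 to 6000 fluorescent cells and 1 Affymetrix array per mouse. The array descriptions carry 1 code on all weaned arrays and another on all suckling arrays, and what these codes mean is not given, so weaning and the codes cannot be told apart.

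In a beta cell, closure of ATP-sensitive potassium channels depolarises the membrane, and voltage-gated calcium channels then admit the calcium that triggers insulin granule release. Sodium channels shape the action potentials of mouse beta cells, and several TRP channels carry depolarising or calcium currents that tune excitability. Inositol trisphosphate (IP3) receptors and ryanodine receptors release calcium from the endoplasmic reticulum, and IP3 receptors do so in response to hormones and neurotransmitters that activate phospholipase C.

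Of 12 listed beta-cell markers 10 were measured and all 10 lay above background, with a mean over the list of 9.75 to 9.91 log2 units on weaned arrays and 9.79 to 9.89 on suckling arrays. Alpha-cell markers had list means of 6.54 to 6.87 on weaned and 6.56 to 6.79 on suckling arrays. Among them the glucagon gene Gcg had a mean of 12.05 over all arrays, against 12.5 for Iapp and 8.26 for Ins2 of the beta-cell list. Levels of different genes come from different probe sets, so they do not rank the amounts of their RNA. Delta and pancreatic polypeptide cell markers had list means of 8.59 to 8.76 on weaned and 8.40 to 8.81 on suckling arrays. Sst of that list had a mean of 11.92. From which islet cell type the channel signal came was not tested. Markers of neurons and Schwann cells, which also use many of these channels, had list means of 4.76 to 4.81 on weaned and 4.65 to 4.94 on suckling arrays. Acinar markers, of which 21 of 24 lay above background, varied most. Their list means were 3.80 to 5.66 on weaned arrays and 4.12 to 7.18 on suckling arrays, and suckling replicates 2 and 9 were the highest. The mean was lower in weaned mice for 23 of the 24 acinar markers, with a median log2 difference of -1.50. By limma 0 of them passed after adjustment. The list means overlapped, since weaned replicate 12 (5.66) lay above suckling replicates 11 (4.12) and 12 (4.77). In sorted cells measured in bulk, fewer cells of a type and less RNA per cell cannot be told apart.

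No channel gene passed the test between weaned and suckling mice. The type 3 IP3 receptor gene Itpr3 had the widest upward difference of the members, 1.33-fold, and the calcium-selective TRP channel gene Trpv6 was weaker in every weaned mouse than in any suckling mouse. Trpv6 lay just above background through its suckling mean only, and its weaned mean (3.02 log2 units) lies under the background level given below. The L-type calcium channel genes Cacna1c and Cacna1d and the sodium channel gene Scn9a, which have known roles in excitable cells, overlapped between the groups. By limma, 0 of 63 members passed an adjusted p of 0.05, where 0.015% of all genes did. Before adjustment 3 members had p under 0.05, where 7.58% of all genes did. Of these, Itpr3 was higher in weaned mice (4.39% of all genes were) and Trpv6 and Trpc7 were lower (3.19% of all genes were).

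The groups of arrays did not overlap for 5 members, where 7.32% of all genes showed this. Itpr3 and Trpm5 were the higher ones in weaned mice, and Trpv6, Trpc7 and Cacna1s the lower ones. The mean was higher in weaned mice for 24 of the 63 members, against 50.1% of all genes. The median log2 difference (weaned minus suckling) was -0.043 over the 63 members and 0.0005 over all genes. Without suckling replicate 12 the members at an unadjusted p under 0.05 became 3 higher and 6 lower. Without suckling replicate 9 there were 2 higher, and without weaned replicate 5 there was none higher, with 3 lower. The share of all genes was not counted in these refits, so the counts cannot be set against it.

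A channel gene was called above background when its mean over all 7 arrays exceeded 3.27 log2 units, the 95th percentile of 1027 olfactory receptor genes. By this rule 33 of the 60 channel genes lay above background and 27 did not. The level is approximate, since each probe set has its own background. Just under it lay Cacnb4 (3.23) and Ryr1 (3.21), and just over it Trpv6 (3.29), Trpv2 (3.33) and Scn3b (3.33). Of the 33 genes above background, 13 had a higher mean in weaned mice, where 54.7% of all genes above background did, and the median log2 difference was -0.029, against 0.022 over all genes above background. Before adjustment 2 of the 33 had p under 0.05 (8.86% of all genes above background), 1 higher (5.53%) and 1 lower (3.34%). The groups did not overlap for 3 of the 33 (8.4%). The 1 lower gene, which is also among these 3, is Trpv6. It passed the background rule through its suckling mean (3.49), while its weaned mean (3.02) lies under the level.

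**Figure D1:**
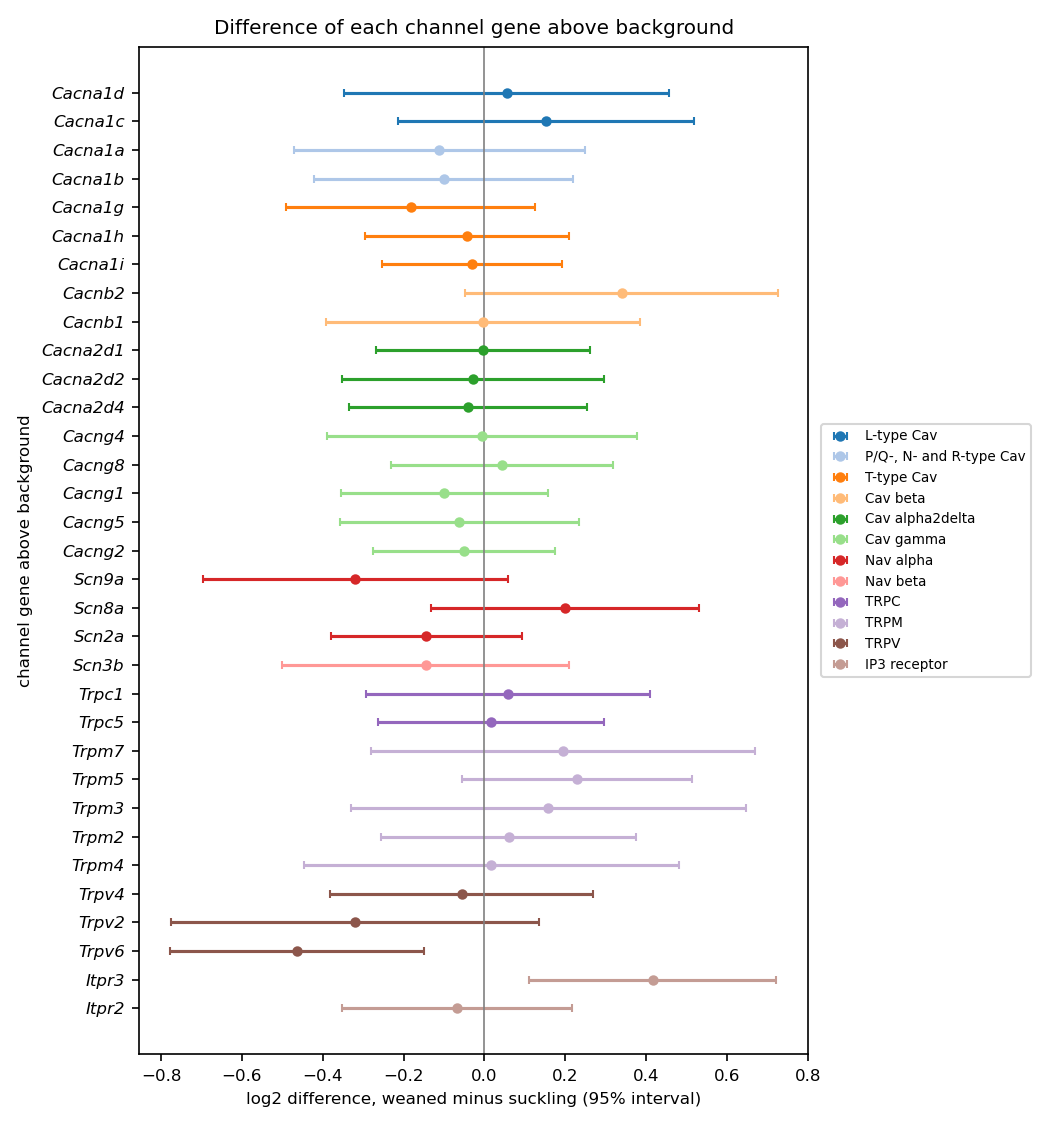
Log2 difference, weaned minus suckling, of each of the 33 channel genes above background (points) with its 95% interval (bars), grouped and coloured by subfamily. The interval excludes 0 for Itpr3 (0.11 to 0.72) and for Trpv6, before adjustment for the number of genes tested, and the weaned means of Trpv6, Trpv2 and Scn3b lie under the background level, so that their plotted differences are not exact changes.

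Promoters rich in CG dinucleotides were more frequent among the channel genes with signal, a sequence feature that took no part in choosing the genes. RefSeq promoter windows of 300 bases, of build GRCm38.p6, were matched for 49 of the 60 channel genes, and the first window listed was used where a gene had several. The ratio of observed to expected CG dinucleotides (the motif CG, which reads the same on both strands) exceeded 0.6, a level usual for CpG islands, in 15 of 25 channel genes above background and in 5 of 24 not above it. Medians were 0.70 and 0.37. Over all genes with a window, 67.9% of 10840 above background and 16.7% of 4723 not above it exceeded 0.6, the same order as in the channel genes. This comparison and its level of 0.6 were chosen after the array values were seen, and the shares describe the windows, with no test.

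The sequences below are the 250 bases before the annotated start of Itpr3 and Trpv6, the genes above background with the smallest unadjusted p, and of Scn9a, the sodium channel gene with signal far above background. CG dinucleotides are in capitals. The set was chosen after the values were seen, and Trpv6 passed the background rule through its suckling mean only. Sequences are from RefSeq, GRCm38.p6, written 5′ to 3′ on the strand of the gene.
Itpr3, chr17:27057054-27057303, + strand: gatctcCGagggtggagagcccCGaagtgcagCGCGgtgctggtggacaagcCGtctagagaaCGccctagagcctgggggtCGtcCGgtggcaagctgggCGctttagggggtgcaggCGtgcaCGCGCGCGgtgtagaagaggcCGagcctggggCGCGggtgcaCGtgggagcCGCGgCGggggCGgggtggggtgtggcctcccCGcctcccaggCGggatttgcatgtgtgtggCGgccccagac
Trpv6, chr6:41636406-41636655, - strand: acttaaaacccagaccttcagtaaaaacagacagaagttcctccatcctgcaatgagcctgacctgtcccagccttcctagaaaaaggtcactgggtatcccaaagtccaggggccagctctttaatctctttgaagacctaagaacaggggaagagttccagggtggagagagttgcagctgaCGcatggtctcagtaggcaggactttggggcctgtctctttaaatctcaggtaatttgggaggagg
Scn9a, chr2:66634963-66635212, - strand: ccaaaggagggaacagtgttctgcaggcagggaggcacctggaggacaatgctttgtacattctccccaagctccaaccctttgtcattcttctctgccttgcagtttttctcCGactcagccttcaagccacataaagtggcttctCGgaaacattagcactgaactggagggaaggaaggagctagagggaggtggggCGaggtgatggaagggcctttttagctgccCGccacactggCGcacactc
The Itpr3 stretch holds 25 CG dinucleotides, the Scn9a stretch 5 and the Trpv6 stretch 1. Over the full windows the observed to expected ratio was 0.80 for Itpr3, 0.37 for Scn9a and 0.051 for Trpv6. Scn9a thus gave strong signal from a window poor in CG, as did the TRP channel gene Trpm5 (ratio 0.24). The first windows of Cacna1c (0.15) and Cacna1d (0.34) were also poor in CG. Another window of each reached 1.16 and 1.18, so for these 2 genes the class depends on the window used. Windows on both sides of 0.6 were also listed for Cacnb1 (0.11 to 0.84), Cacnb2 (0.28 to 0.94) and Cacng5 (0.21 to 0.6003). The same holds for Scn8a (0.56 to 1.05), Trpm3 (0.40 to 0.63) and Cacnb4 (0.27 to 0.96), the last not above background. The first windows of these genes exceeded 0.6, so the counts over 0.6 also depend on the window used.

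**Figure D2:**
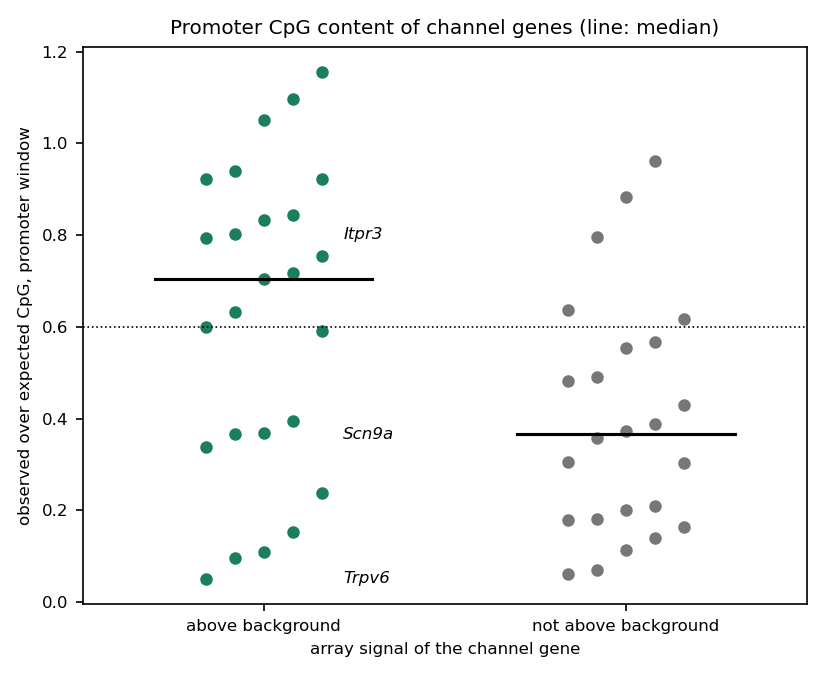
Observed over expected CG dinucleotides in the 300-base promoter window of each matched channel gene (points), for 25 genes above background and 24 not above it, with the median of each class as a line and the level of 0.6 dotted. The medians are 0.70 above background and 0.37 not above it, and Scn9a and Trpv6 lie low among the genes above background.

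The pore-forming subunits of L-type calcium channels carry much of the calcium current that triggers insulin release. Of 4 measured genes Cacna1c and Cacna1d lay above background, and the muscle gene Cacna1s and the retinal gene Cacna1f did not. Cacna1c had 5.56, 6.16 and 5.83 log2 units in weaned mice (replicates 4, 5 and 12), against 5.58, 5.61, 5.63 and 5.97 in suckling mice (replicates 2, 9, 11 and 12). The groups overlapped, and the difference was 0.15 (95% interval -0.21 to 0.52, adjusted p = 0.863). Cacna1d had 6.68, 6.69 and 6.25 log2 units in weaned mice, against 6.31, 6.41, 6.32 and 6.90 in suckling mice. Weaned replicate 12 was the lowest of all 7 arrays and suckling replicate 12 the highest, and the difference was 0.05 (95% interval -0.35 to 0.46).

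Of the other high-voltage-activated pores, Cacna1a of P/Q-type and Cacna1b of N-type channels lay above background, and Cacna1e of R-type channels did not. Cacna1a, whose channels also act in exocytosis at synapses, had 6.17, 6.59 and 6.40 log2 units in weaned mice, against 6.29, 6.34, 6.53 and 6.83 in suckling mice. The groups overlapped, with a difference of -0.11 (95% interval -0.47 to 0.25). It was -0.0023 without suckling replicate 12, -0.0037 without weaned replicate 4, -0.21 without weaned replicate 5 and -0.23 with the mean of the acinar list as a covariate. Cacna1e had 2.92, 3.10 and 3.26 log2 units in weaned mice, against 3.31, 3.29, 3.24 and 3.02 in suckling mice, with groups that overlapped. All 3 T-type genes, which encode channels that open near the resting potential, lay above background by a small margin. Cacna1g had 3.60, 3.60 and 3.46 log2 units in weaned mice, against 3.91, 3.75, 3.85 and 3.42 in suckling mice, where replicate 12 alone was as low as the weaned arrays (difference -0.18, 95% interval -0.49 to 0.13). Cacna1h had 3.32, 3.32 and 3.45 log2 units in weaned mice, against 3.46, 3.29, 3.55 and 3.33 in suckling mice, and the groups overlapped (-0.04, 95% interval -0.29 to 0.21).

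Auxiliary subunits bring the pores to the membrane and set their gating. Cacnb2, which encodes a cytoplasmic beta subunit, had 4.53, 4.65 and 4.84 log2 units in weaned mice, against 4.20, 4.59, 3.98 and 4.59 in suckling mice. Suckling replicates 9 and 12 lay inside the weaned range and replicates 2 and 11 below it. The difference was 0.34 (SE 0.17, 95% interval -0.05 to 0.73, adjusted p = 0.687), and 0.22 without suckling replicate 11. With 1 array left out it ran from 0.22 to 0.42. With the acinar covariate it was 0.45 (unadjusted p by limma 0.0477, adjusted p = 0.861). Cacna2d1, an extracellular alpha2delta subunit, had 7.60, 7.40 and 7.51 log2 units in weaned mice, against 7.45, 7.37, 7.51 and 7.69 in suckling mice. Its difference was -0.0036 (95% interval -0.27 to 0.26) and that of its second probe set -0.031. The 7 measured genes of the gamma family, several of which encode partners of glutamate receptors, differed by -0.10 to 0.04, and 5 of them lay above background.

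**Figure D3:**
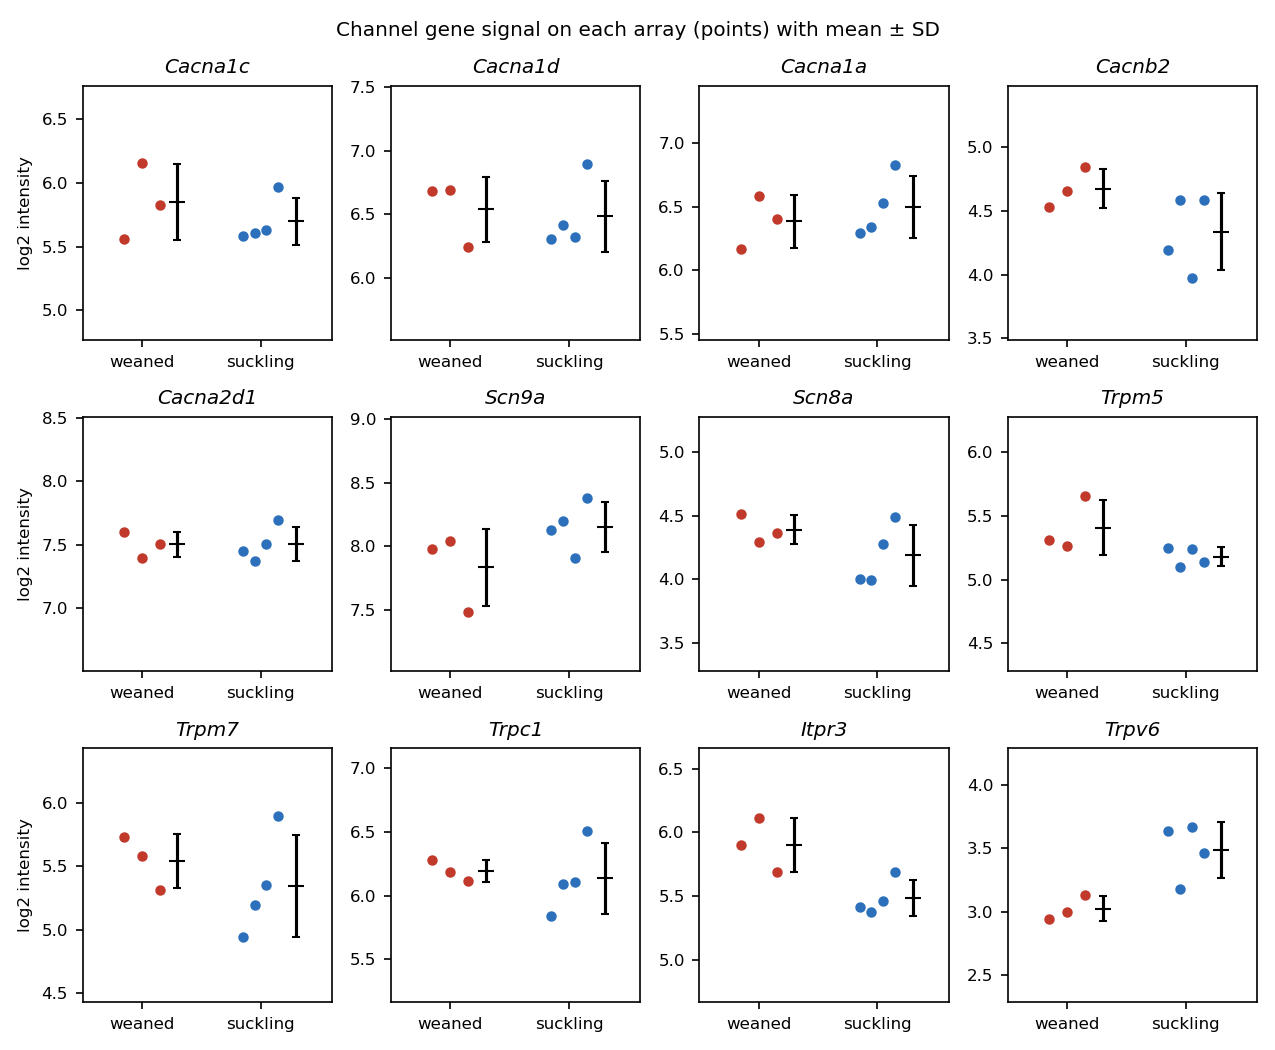
Log2 intensity of 12 channel genes on each of the 3 weaned (left, red) and 4 suckling (right, blue) arrays, with the group mean and SD in black. Every panel spans the same number of log2 units, and the groups separate for Trpm5 and Trpv6, meet at 5.69 log2 units for Itpr3 and overlap for the rest.

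Among genes for sodium channel pores, Scn9a, Scn8a and Scn2a of 8 measured genes lay above background. Scn9a had 7.98, 8.04 and 7.48 log2 units in weaned mice, against 8.13, 8.20, 7.90 and 8.38 in suckling mice. The lowest array was weaned replicate 12, and weaned replicates 4 and 5 lay inside the suckling range. The difference was -0.32 (SE 0.17, 95% interval -0.70 to 0.058, adjusted p = 0.6955, limma), and -0.14 without weaned replicate 12. It was -0.42 without weaned replicate 5 and -0.38 with the acinar covariate. A second Scn9a probe set differed by -0.25 (SE 0.11), in the same direction.

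Scn3a, which encodes another sodium channel studied in islets, was not above background, with 2.54, 3.10 and 2.71 log2 units in weaned mice, against 3.08, 3.04, 3.01 and 3.29 in suckling mice. Weaned replicate 5 alone lay inside the suckling range. Scn3a, Scn2a, Scn1a, Scn9a and Scn7a lie on chromosome 2 in that order in RefSeq, with other protein-coding genes only between Scn2a and Scn1a. Of these sodium channel genes only Scn2a and Scn9a lay above background. Scn8a had 4.52, 4.29 and 4.36 log2 units in weaned mice, against 4.00, 3.99, 4.28 and 4.49 in suckling mice (difference 0.20, 95% interval -0.13 to 0.53), with suckling replicates 2 and 9 the lowest. These are also the arrays with the highest acinar list means (7.18 and 7.05). The Scn8a difference was 0.0585 with the acinar list mean as a covariate and 0.0050 without both arrays. The covariate itself differs between the groups, and a link of Scn8a to acinar RNA was not tested.

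Scn2a showed that probe sets of 1 gene can disagree. It has 14 probe sets, of which 12 had means under the background level. The brightest had 3.65, 3.66 and 3.77 log2 units in weaned mice, against 3.94, 3.87, 3.77 and 3.77 in suckling mice (difference -0.14, 95% interval -0.38 to 0.092). Weaned replicate 12 and suckling replicates 11 and 12 had the same value of 3.7700, so this probe set did not separate these arrays. The next brightest, probe set 10472378, had 3.47, 3.30 and 2.86 log2 units in weaned mice, against 4.22, 4.503, 3.13 and 4.73 in suckling mice, so that suckling replicate 11 lay with the weaned arrays. Its measured difference was -0.94 (unadjusted p by limma 0.0259, in a fit of all single-symbol probe sets). Its weaned mean of 3.21 lies under the background level, so this is not an exact change and no fold is given. The 2 probe sets had close means over all arrays (3.78 and 3.75), so a small margin decided which stood for Scn2a. Of the sodium channel beta subunit genes, Scn3b lay just above background and Scn2b and Scn4b did not.

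TRP channels of the M family are cation channels gated by calcium, by nucleotides or by lipids. Trpm5, a calcium-activated channel that supports glucose-induced insulin release, had 5.31, 5.26 and 5.66 log2 units in weaned mice, against 5.24, 5.10, 5.24 and 5.14 in suckling mice. The groups did not overlap, by 0.02 log2 units at their nearest arrays, and weaned replicate 12 stood above the others. The difference was 0.23 (SE 0.13, 95% interval -0.05 to 0.51, adjusted p = 0.716), and 0.11 without weaned replicate 12. It was 0.30 without weaned replicate 5 and 0.28 with the acinar covariate. Trpm4, the related calcium-activated channel, had 3.09, 3.36 and 3.71 log2 units in weaned mice, against 3.08, 3.70, 3.07 and 3.62 in suckling mice, and both groups spanned the same range.

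Trpm7, a magnesium-permeable channel with a kinase domain, had 5.73, 5.58 and 5.31 log2 units in weaned mice, against 4.94, 5.20, 5.35 and 5.89 in suckling mice. Suckling mice spread more widely (SD 0.40) than weaned mice (SD 0.21), and the difference was 0.19 (95% interval -0.28 to 0.67). It was 0.061 without suckling replicate 2, 0.10 without weaned replicate 4, 0.31 without weaned replicate 12 and 0.38 without suckling replicate 12. Trpm2, a channel opened by ADP-ribose, had 3.91, 3.76 and 3.67 log2 units in weaned mice, against 3.81, 3.50, 3.98 and 3.60 in suckling mice, a difference of 0.06 (95% interval -0.26 to 0.37). Of 8 M-family genes 5 lay above background, and all 5 had a higher mean in weaned mice, where 54.7% of all genes above background did, by 0.017 to 0.23, with none past the test. That direction did not hold throughout, since Trpm2 was -0.032 and Trpm7 -0.045 with the acinar covariate, and Trpm4 was -0.0026 with centring.

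Members of the C family are linked to phospholipase C signalling. Trpc1 had 6.28, 6.18 and 6.12 log2 units in weaned mice, against 5.84, 6.09, 6.11 and 6.51 in suckling mice. The weaned values lay inside the suckling range, with a difference of 0.0575 (95% interval -0.29 to 0.41). Trpc7, a diacylglycerol-activated channel, had 2.44, 2.82 and 2.79 log2 units in weaned mice, against 3.14, 3.07, 3.12 and 3.40 in suckling mice. Its groups did not overlap and its unadjusted p by limma was 0.00485 (adjusted p = 0.505), but its mean of 2.97 was not above background and no fold is given.

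The V family holds heat- and ligand-gated channels and a pair of calcium-selective channels, Trpv5 and Trpv6, which neighbour each other in the genome. Trpv6 had 2.94, 2.996 and 3.13 log2 units in weaned mice, against 3.63, 3.18, 3.67 and 3.47 in suckling mice. Every weaned array lay under every suckling array (unadjusted p by limma 0.00841, adjusted p = 0.544), but the weaned mean of 3.02 lies under the background level, so the measured difference is not an exact change and no fold is given. Trpv2 had 2.999, 3.31 and 3.13 log2 units in weaned mice, against 3.97, 3.57, 3.20 and 3.12 in suckling mice, where the array highest in acinar markers, replicate 2, was also highest in Trpv2. The weaned mean of 3.15 lies under the background level, so the measured difference of -0.32 is not an exact change. It was -0.098 with the acinar covariate, -0.15 when suckling replicate 2 was left out, and -0.012 when replicate 9 was left out as well. A link of Trpv2 to acinar RNA was not tested. Trpv4, an osmotically sensitive channel, had 3.72, 3.68 and 3.68 log2 units in weaned mice, against 3.73, 3.89, 3.98 and 3.41 in suckling mice, and the groups overlapped. Trpa1, a channel for irritants, was not above background, with 3.06, 2.92 and 2.57 log2 units in weaned mice, against 2.93, 2.67, 2.71 and 2.67 in suckling mice.

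Of the calcium release channels, both measured IP3 receptor genes lay above background and all 3 ryanodine receptor genes did not. Itpr3 had 5.90, 6.11 and 5.69 log2 units in weaned mice, against 5.42, 5.37, 5.46 and 5.69 in suckling mice. Weaned replicate 12 and suckling replicate 12 met at 5.69, and all other weaned arrays lay above all suckling arrays. The means were 5.90 ± 0.21 log2 units in weaned mice (SD, n = 3) and 5.49 ± 0.14 in suckling mice (SD, n = 4). The difference was 0.42 (SE 0.14, 95% interval 0.11 to 0.72, adjusted p = 0.567, limma), or 1.33-fold. Leaving out weaned replicate 5 gave 0.31, with an unadjusted p by limma of 0.0584, and leaving out weaned replicate 12 gave 0.52.

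Itpr3 was lowest on suckling replicates 2 and 9, the arrays with the highest acinar list means, and its difference was 0.30 with the acinar covariate and 0.33 without both arrays, with unadjusted p by limma of 0.0679 and 0.0993. Whether acinar RNA bears on the Itpr3 signal was not tested. Itpr3os, the transcript named for the opposite strand of this gene, had 4.38, 4.01 and 3.44 log2 units in weaned mice, against 3.75, 3.51, 4.02 and 3.98 in suckling mice, with groups that overlapped. Itpr2, the other IP3 receptor gene measured, had 3.96, 3.78 and 3.79 log2 units in weaned mice, against 3.95, 3.67, 3.96 and 4.07 in suckling mice (difference -0.068, 95% interval -0.35 to 0.22). Ryr2, the ryanodine receptor best known from heart and studied in beta cells, had 3.045, 3.04 and 3.18 log2 units in weaned mice, against 3.01, 3.15, 3.12 and 3.20 in suckling mice, and the groups overlapped.

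The channel genes also varied from mouse to mouse in ways that cut across the groups. Among the 33 genes above background, suckling replicate 12 was the highest of the 7 arrays for 10 genes (30.3%, against 19.2% of all genes above background), among them Cacna1d, Cacna1a, Scn9a, Trpm7 and Trpc1. Weaned replicate 4 was the lowest for 9 (27.3%, against 14.9%) and the highest for 1 gene (3.03%, against 20.6%). Suckling replicate 9 was the lowest for 8 (24.2%, against 13.8%). The median deviation of the channel genes from their own means was 0.070 on suckling replicate 12 and -0.041 on weaned replicate 4, against 0.029 and 0.026 over all genes above background. It was -0.042 on weaned replicate 12 and -0.040 on suckling replicate 9, against 0.020 and -0.029.

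**Figure D4:**
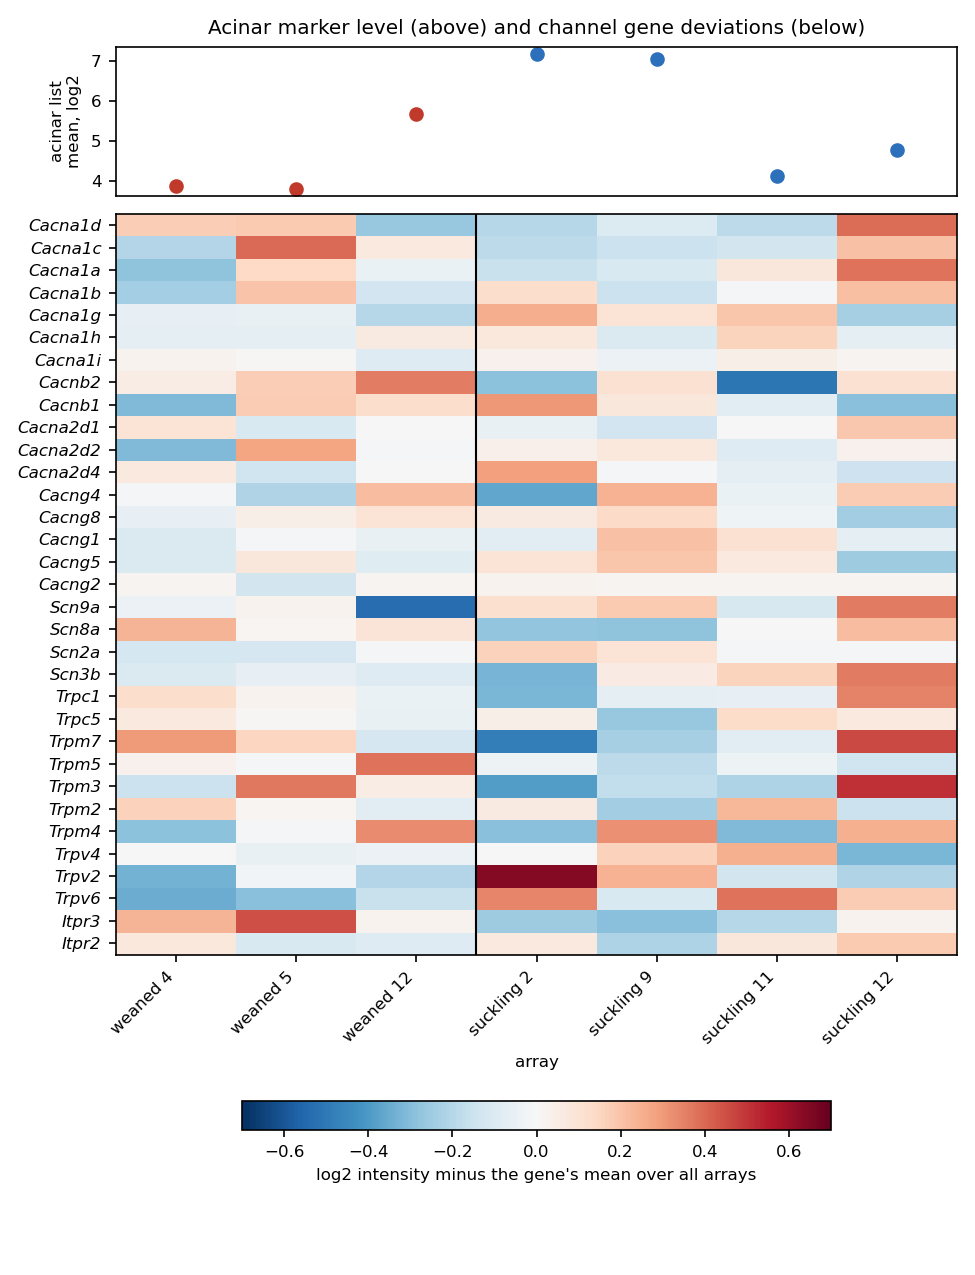
Upper panel, mean log2 level of 24 acinar markers on each array. Lower panel, log2 intensity of each channel gene above background minus its mean over all arrays, for the 3 weaned (left of the line) and 4 suckling arrays, where suckling replicate 12 is the highest array for 10 of the 33 genes.

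Partners of these channels were listed in 5 groups, calcium pumps and exchangers, store-operated and organelle calcium channels, calcium buffers and sensors, channel regulators and other cation channels. Of 108 measured genes, 0 passed by limma over all genes, while 10 were higher and 1 was lower at an unadjusted p under 0.05, where 4.39% and 3.19% of all genes were. The median log2 difference of these 108 genes was 0.039. The pacemaker cation channel gene Hcn3 had 4.97, 5.20 and 5.22 log2 units in weaned mice, against 4.40, 4.56, 4.68 and 4.72 in suckling mice, and the groups did not overlap (difference 0.54, SE 0.12, adjusted p = 0.370). Hcn4, of the same family, had 5.97, 6.09 and 5.83 log2 units in weaned mice, against 5.31, 5.58, 5.54 and 5.52 in suckling mice, again with no overlap (0.48, SE 0.12, adjusted p = 0.429).

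Rem2, a small GTPase that inhibits voltage-gated calcium channels through their beta subunits, had 4.16, 4.40 and 4.07 log2 units in weaned mice, against 3.86, 3.53, 3.52 and 3.06 in suckling mice. All weaned arrays lay above all suckling arrays, with a difference of 0.71 (SE 0.18, 95% interval 0.31 to 1.12, adjusted p = 0.449). Cabp7, a calcium-binding protein of the calmodulin superfamily, had 5.59, 5.34 and 5.53 log2 units in weaned mice, against 4.96, 4.42, 5.12 and 4.70 in suckling mice, without overlap (0.68, SE 0.17, adjusted p = 0.432). The endolysosomal channel gene Tpcn1 differed by 0.27 (SE 0.10) and Stim2, a calcium sensor of the endoplasmic reticulum, by 0.35 (SE 0.13), with adjusted p of 0.624 and 0.628. Casq2, a calcium buffer of the sarcoplasmic reticulum, and the exchanger genes Slc24a3 and Slc8a3 were not above background.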

How the data were processed

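Total RNA of sorted cells of 7 mice was extracted with an RNeasy micro kit, amplified with the Ovation Pico System V2 and hybridised to Affymetrix arrays, per the labels' protocols. The deposited intensity values, 1 per probe set and array, were made by the authors with RMA and Partek 6.6, per the submitters' processing notes, which give no order or settings. They range from 1.45 to 12755 and are therefore linear, and were turned into log2 values before use. RMA shrinks differences of dim probe sets. Array medians lay between 14.1 and 14.9. All 7 value columns were used.

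Of 35556 probe sets 21789 carry 1 gene symbol, 1621 several and 12146 none. Symbols were updated by gene ID through a RefSeq table of GRCm38.p6 (21698 matched), and each of 19938 genes was represented by its brightest probe set. Dim genes were kept. The groups were compared with limma 3.58.1 in R 4.3.3 (lmFit and eBayes, two-sided, no covariate), with p adjusted by Benjamini-Hochberg across the 19938 genes and a threshold of 0.05, and the fit was tested on simulated data. Each array is 1 mouse, and the number of arrays limits the precision (median SE of a member's difference 0.14).

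The members, gene lists and tests were chosen with earlier results of these data known, so no list was tested as a set. Values of every array are given for members at an unadjusted p under 0.05, for the 4 widest differences above background in each direction, and for a set of beta-cell channel genes. Up to 2 genes of each related list, those with the smallest p, are named, except 1 channel regulator that this rule would name, which is counted but not reported here. Scn2a and Itpr3os were added after their values were seen. Duct, delta and pancreatic polypeptide, endothelial, stellate and leukocyte markers were also listed, with medians of log2 difference of 0.015, -0.045, -0.045, -0.064 and -0.073. The median of the acinar list was -1.50. Alternatives tried were quantile normalization, centring on array medians, a moderated fit with a robust prior and trend, leaving out the dimmest 25% of genes, averaging probe sets, array weights, an acinar covariate, and leaving out each array or suckling replicates 2 and 9 together, a pair picked from earlier results of these data.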

Additional observations from a re-analysis of the deposited data

Results flagged for a closer look

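Among 34 named genes, 2 had a suckling array far from the other 3, where chance gives about 1 in 20 groups. For Cacna1c it was suckling replicate 12, at 5.97 log2 units against 5.58 to 5.63 on the others, a gap of 0.863 of the group's range. For Trpa1, which was not above background, it was suckling replicate 2, at 2.93 log2 units, with a gap of 0.843 of the range.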

How the results depend on the processing

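No member passed an adjusted p of 0.05 by limma under any alternative run, and over 507 alternative values of 34 named genes the lowest adjusted p was 0.302. With 1 array left out the members at an unadjusted p under 0.05 ran from 0 to 3 higher and from 2 to 6 lower. There were 0 higher without suckling replicates 2 and 9 together and 1 lower with the dimmest genes left out, since that filter removes Trpc7. The share of all genes at this p was not counted under these alternatives. The median over the members stayed between -0.061 and -0.044 with 1 array left out. The differences of 23 named genes, Itpr3, Trpv6, Scn9a, Cacnb2 and Trpm5 among them, had the same sign under every alternative that kept the gene. The filter on dim genes removes Scn3a and Trpc7. Where the groups do not overlap, as for Itpr3, Trpv6 and Trpm5, leaving out arrays cannot reverse the sign. The other 11 named genes changed sign around 0, and for these the cause was not tested. Ryr2 was 0.0067 with quantile normalization, Trpm4 -0.0026 with centring and Cacna2d1 0.0023 with array weights. With the acinar covariate Cacna1d was -0.089, Trpc1 -0.0735, Trpm2 -0.032 and Trpm7 -0.045. Without suckling replicates 2 and 9 together Cacna1d was -0.071, Trpc1 -0.11, Trpm2 -0.0069, Trpm7 -0.080 and Trpv4 0.0022. With 1 array left out Cacna1c ran from -0.0027 to 0.30, Cacna1d from -0.022 to 0.20, Cacna1h from -0.086 to 0.0038, Cacna2d1 from -0.052 to 0.059, Trpa1 from -0.001 to 0.25, Trpc1 from -0.041 to 0.18, Trpm2 from -0.013 to 0.15, Trpm4 from -0.14 to 0.17 and Trpv4 from -0.17 to 0.019. No paired analysis was made because the labels give no pairing. Replicate number 12 occurs in both groups, and nothing says that it marks a pair. Signal near background limits 27 of the 60 channel genes.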
